A study of Mus musculus with 6 samples.

Results

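The genes described here encode an FGF ligand, the FGF and PDGF receptors of the early embryo and the genes that ERK signalling switches on. They were chosen by name, with earlier results of these data known, and comprise 10 of the 55378 genes in the count table: Fgf4, Fgfr1, Fgfr2, Pdgfra, Grb2, Dusp6, Spry2, Spry4, Etv4 and Etv5. Each was found through its Ensembl gene identifier. RNA came from mouse embryos that had been microinjected as zygotes with an siRNA against Eif4a3 (Eif4a3-KD) or with a negative control siRNA (NC) and were collected as blastocysts on day 5. Each group held 3 libraries, and each library pooled 5 embryos, so the NC embryos had been injected too. Poly(A) RNA was amplified by Smart-seq2, which copies whole transcripts from very small inputs, and sequenced as read pairs of 150 bases. The protein made from Eif4a3 is an RNA helicase that anchors the exon junction complex on mRNA during splicing. The strain of the embryos and their parents are not given in the sources used here, so p-values measure only the spread between these pools, which may in part be technical.

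In the blastocyst, FGF4 is secreted by cells of the inner cell mass that become epiblast, and it acts on neighbouring cells through FGFR1 and FGFR2. Bound receptors recruit GRB2, which links them to RAS and the kinase cascade that ends in ERK, and this signal directs inner cells toward primitive endoderm and sustains trophectoderm growth. PDGFRA marks the primitive endoderm. ERK in turn raises DUSP6, SPRY2 and SPRY4, which limit the cascade, and the transcription factors ETV4 and ETV5.

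Summed exon block counts ranged over the libraries between 15607226 and 18697761, where a block is a set of overlapping exons of a gene. Levels are given as CPM, the depth-scaled count, computed with edgeR's effective library sizes. Across genes, log-scale levels correlated at r = 0.943 to 0.961 among Eif4a3-KD libraries, 0.954 to 0.978 among NC libraries and 0.864 to 0.92 between the groups. Eif4a3, the target of the siRNA, measured 16.03, 36.2 and 56.2 CPM in the Eif4a3-KD libraries, against 302, 255 and 202 CPM in the NC libraries (log2 fold change −2.81, SE 0.44, adjusted p 0.00513 by edgeR).

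RNA for the PDGF receptor Pdgfra, the FGF receptor Fgfr1 and the ERK phosphatase gene Dusp6 was lower in Eif4a3-KD blastocysts than in NC blastocysts. The differences were 22.7-fold for Pdgfra, 3.91-fold for Fgfr1 and 3.43-fold for Dusp6 in edgeR's quasi-likelihood fit. The first 2 of these sizes depended on the libraries kept. With all libraries the log2 fold change of Pdgfra was −4.50. Left-out libraries moved it between −5.28 (without Eif4a3-KD library 2) and −3.96 (without Eif4a3-KD library 1). That of Fgfr1 was −1.97 with all libraries. It moved between −2.71 (without Eif4a3-KD library 1) and −1.56 (without Eif4a3-KD library 3). Of the 10 genes, 9 had enough counts to be tested. Of these, 3 passed an adjusted p of 0.05 on the lower side, where the background was 5.56% of the 15619 genes tested, and 0 passed on the higher side, where the background was 7.52%. Another 6 tested genes missed the threshold. At an unadjusted p under 0.05 there were 6 of the 9, all of them lower, where the background was 13.7% of the genes tested on the lower side and 16.4% on the higher side. In 5 genes (Fgfr1, Fgfr2, Pdgfra, Dusp6 and Etv5) all 3 Eif4a3-KD libraries lay below all 3 NC libraries, which held for 16.3% of all genes tested. In 0 of the 10 genes did they all lie above, against 20.1% of all genes tested. The median log2 fold change of the 9 tested genes was −1.26, beside 0.03 over all genes tested, and 8 of the 9 estimates were below 0, as were 48.8% of those over all genes tested. Only genes that pass a filter on low counts enter this median, and Etv4 was left out by it. Because the genes were chosen with earlier results of these data known, the comparisons with all genes tested are descriptions only. In pooled blastocysts, fewer cells of a type and less RNA per cell cannot be told apart.

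**Figure D1:**
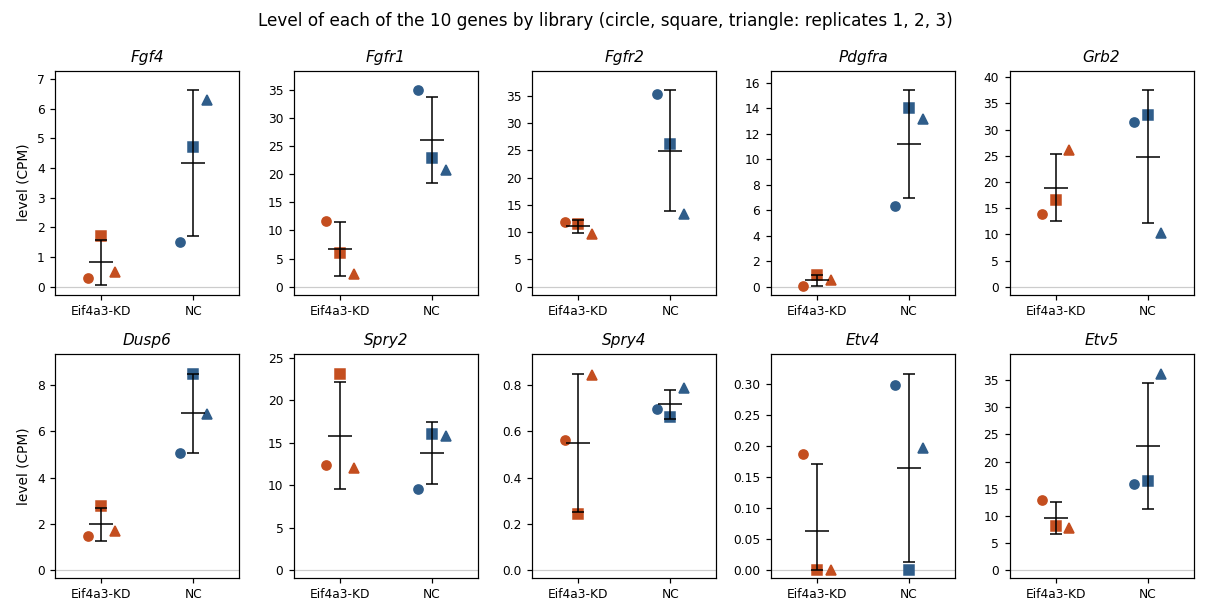
Level of each of the 10 genes in CPM (y axis, linear, each panel with its own scale) in the 3 Eif4a3-KD libraries and the 3 NC libraries; points are libraries, bars the mean and SD (n = 3), cut at 0 where the SD exceeds the mean. The Eif4a3-KD points lie wholly below the NC points for Fgfr1, Fgfr2, Pdgfra, Dusp6 and Etv5.

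Fgf4, the ligand, lies at chr7:144847367-144865243 on the plus strand of GRCm38. The untranslated part of its last exon carries an enhancer that SOX2 and OCT4 (encoded by Pou5f1) are known to bind together, and the stretch is shown because it is the known link between the epiblast factors and this ligand. The site read from GENCODE M21 transcript Fgf4-201 is at chr7:144864388-144864417, plus strand, and the capitals mark the SOX motif CTTTGTT and the POU motif ATGCTAAT, which do not overlap.
Fgf4 last exon site: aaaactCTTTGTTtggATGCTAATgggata
The same pair with 3 bases between the motifs occurred in 0 of 32851 RefSeq promoter windows (GRCm38.p6, either strand). So long a pattern is rare by chance in any such windows, and the site lies in an exon. This 0 therefore does not show how unusual the site is, and the match is a description of letters only. Fgf4 RNA measured 0.281, 1.70 and 0.482 CPM in Eif4a3-KD libraries 1, 2 and 3, against 1.49, 4.72 and 6.30 CPM in NC libraries 1, 2 and 3. Eif4a3-KD library 2 was above NC library 1, so the groups overlapped (exact two-sided permutation p = 0.2, where the smallest p that 3 against 3 libraries allow is 0.1). The group means were 0.820 ± 0.766 CPM in Eif4a3-KD and 4.17 ± 2.45 CPM in NC (SD, n = 3 each), and the log2 fold change was −2.35 (SE 0.79, 95% interval −4.10 to −0.60, adjusted p 0.0761 by edgeR). The values rest on 6, 28 and 8 counts in Eif4a3-KD and 30, 71 and 96 counts in NC. The call depended on the setting: by DESeq2 the adjusted p was 0.0167, with the most counted block alone it was 0.00776, without a filter 0.00603, and without Eif4a3-KD library 2 it was 0.0447, with a log2 fold change of −3.44. Fgf4 missed the threshold without each of the other libraries. Without NC library 3 its log2 fold change was −1.94 (adjusted p 0.209 by edgeR). Most of its counts fell in the last block, which held 0.281, 0.788 and 0.421 CPM in Eif4a3-KD and 1.34, 4.45 and 5.45 CPM in NC. Sox2 measured 0.281, 1.09 and 0.301 CPM in the Eif4a3-KD libraries and 3.38, 2.19 and 3.28 CPM in the NC libraries, with no overlap. Pou5f1 measured 85.8, 50.95 and 58.4 CPM in the Eif4a3-KD libraries and 154, 80.3 and 65.5 CPM in the NC libraries, with overlap. Both were named because of the site, and their part in the Fgf4 values was not tested.

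Pdgfra had the largest difference among the 9 tested genes. It lies at chr5:75152292-75198215 on the plus strand of GRCm38 and encodes the receptor for PDGF-A. Its level was 0.0469, 0.909 and 0.542 CPM in Eif4a3-KD libraries 1, 2 and 3, against 6.32, 14.01 and 13.2 CPM in NC libraries 1, 2 and 3. Every NC library stood above every Eif4a3-KD library, and Eif4a3-KD library 1 held a single count. Means were 0.499 ± 0.433 CPM in Eif4a3-KD and 11.2 ± 4.23 CPM in NC, and the log2 fold change was −4.50 (SE 0.78, 95% interval −6.24 to −2.77, adjusted p 0.00724 by edgeR). The pooled counts, 25 in Eif4a3-KD and 539 in NC, gave a ratio of 0.0429 with a counting interval of 0.0275 to 0.0641 after scaling, which covers counting error only. Pdgfra kept its call without each of the 6 libraries in turn and under the 8 other alternatives. Its ligand gene Pdgfa measured 43.4 CPM on average in Eif4a3-KD and 54.8 CPM in NC (log2 fold change −0.34, adjusted p 0.586 by edgeR). The related receptor gene Pdgfrb was not tested, with 0 counts in Eif4a3-KD and 11 in NC.

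Fgfr1, at chr8:25513654-25575718 on the plus strand, encodes the FGF receptor that epiblast and primitive endoderm cells share. It measured 11.8, 5.997 and 2.23 CPM in Eif4a3-KD libraries 1, 2 and 3, against 34.9, 22.8 and 20.7 CPM in NC libraries 1, 2 and 3. The highest Eif4a3-KD library was below the lowest NC library. The mean was 6.66 ± 4.80 CPM in Eif4a3-KD and 26.1 ± 7.67 CPM in NC, a log2 fold change of −1.97 (SE 0.54, 95% interval −3.17 to −0.77, adjusted p 0.0398 by edgeR). This call depended on single libraries. The adjusted p was 0.118 and 0.0671 without Eif4a3-KD libraries 2 and 3, and 0.12, 0.0877 and 0.0666 without NC libraries 1, 2 and 3.

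Fgfr2, at chr7:130162451-133123350 on the minus strand, encodes the receptor that is most typical of trophectoderm and later primitive endoderm. It measured 11.95, 11.6 and 9.63 CPM in Eif4a3-KD libraries 1, 2 and 3, against 35.3, 26.2 and 13.3 CPM in NC libraries 1, 2 and 3. The Eif4a3-KD libraries were close together and below the NC libraries, whose lowest was 13.3 CPM. Means were 11.1 ± 1.24 CPM in Eif4a3-KD and 24.9 ± 11.1 CPM in NC, with a log2 fold change of −1.17 (SE 0.40, 95% interval −2.05 to −0.30) that missed the threshold (adjusted p 0.0767 by edgeR). It passed by DESeq2 (adjusted p 0.0375), with the most counted block alone (0.00417, log2 fold change −1.92), without a filter (0.0376), with all exon lines summed (0.0411) and without NC library 3 (0.0425). Fgfr2 missed it without each of the other libraries. Without NC library 1 its log2 fold change was −0.84 (adjusted p 0.242 by edgeR). The receptor genes Fgfr3 (−0.35, adjusted p 0.828) and Fgfr4 (0.95, adjusted p 0.244) also missed the threshold, with 7.07 CPM for Fgfr4 in Eif4a3-KD and 3.67 CPM in NC.

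Grb2, the adaptor that joins the receptors to RAS, lies at chr11:115644045-115708597 on the minus strand. It measured 13.96, 16.5 and 26.2 CPM in Eif4a3-KD libraries 1, 2 and 3, against 31.5, 32.7 and 10.3 CPM in NC libraries 1, 2 and 3. The groups overlapped, since NC library 3 was the lowest of all 6. The difference was −0.40 on the log2 scale (SE 0.46, 95% interval −1.41 to 0.62, adjusted p 0.601 by edgeR), and Grb2 passed in 0 of the 14 alternatives.

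Among the feedback inhibitors, Dusp6, which encodes the phosphatase that removes the activating phosphates of ERK, was lower in Eif4a3-KD. It lies at chr10:99263231-99267489 on the plus strand. Its level was 1.45, 2.79 and 1.69 CPM in Eif4a3-KD libraries 1, 2 and 3, against 5.07, 8.50 and 6.76 CPM in NC libraries 1, 2 and 3. The 2 ranges were well apart. Means were 1.98 ± 0.713 CPM in Eif4a3-KD and 6.78 ± 1.71 CPM in NC, a log2 fold change of −1.78 (SE 0.48, 95% interval −2.83 to −0.72, adjusted p 0.0359 by edgeR). All 8 alternatives other than leaving out a library kept the call. The adjusted p was 0.0615 and 0.0918 without Eif4a3-KD libraries 1 and 3, and 0.0508, 0.118 and 0.0813 without NC libraries 1, 2 and 3.

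Spry2 encodes an adaptor-binding inhibitor of receptor signalling and lies at chr14:105891947-105896819 on the minus strand. It measured 12.4, 23.1 and 11.98 CPM in Eif4a3-KD libraries 1, 2 and 3, against 9.60, 16.1 and 15.8 CPM in NC libraries 1, 2 and 3. The groups overlapped, and the log2 fold change was 0.20 (SE 0.39, 95% interval −0.67 to 1.07, adjusted p 0.775 by edgeR). Spry4, a gene of the same family at chr18:38586247-38601415 on the minus strand, was near the lower limit of the data, with 12, 4 and 14 counts in Eif4a3-KD and 14, 10 and 12 counts in NC. It measured 0.562, 0.242 and 0.843 CPM in Eif4a3-KD libraries 1, 2 and 3, against 0.696, 0.664 and 0.788 CPM in NC libraries 1, 2 and 3. Its log2 fold change was −0.38 (SE 0.69, 95% interval −1.90 to 1.15, adjusted p 0.754 by edgeR). Both genes missed the threshold in all alternatives run, and the intervals include decreases and increases.

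Of the nuclear outputs, Etv5, a transcription factor of the ETS family that ERK induces, lies at chr16:22381309-22439719 on the minus strand. It measured 12.9, 8.06 and 7.70 CPM in Eif4a3-KD libraries 1, 2 and 3, against 15.9, 16.5 and 36.2 CPM in NC libraries 1, 2 and 3. All Eif4a3-KD libraries were below the NC libraries, and NC library 3 was far above the other NC libraries. The mean was 9.55 ± 2.90 CPM in Eif4a3-KD and 22.9 ± 11.6 CPM in NC, and the log2 fold change of −1.26 (SE 0.42, 95% interval −2.20 to −0.32) missed the threshold (adjusted p 0.077 by edgeR). It passed by DESeq2 (0.0353), with the most counted block alone (0.0215) and without a filter (0.0267). Etv5 missed the threshold without each of the 6 libraries in turn. Without NC library 3 its log2 fold change was −0.78 (adjusted p 0.266 by edgeR). Etv4, a close relative at chr11:101769742-101785371 on the minus strand, held 4, 0 and 0 counts in Eif4a3-KD and 6, 0 and 3 counts in NC. A count of 0 allows up to 3 counts in a library, so a difference in Etv4 was not detectable at this depth. Mapk3, which encodes the kinase ERK1, had a log2 fold change of −0.74 (adjusted p 0.513 by edgeR) and did not pass.

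The promoters of Dusp6 and Spry2 are shown because both genes are outputs of ERK, of which Dusp6 passed the test and Spry2 did not. The windows are RefSeq's, on GRCm38.p6, and run over 300 bases around the start of the gene, at chr10:99262981-99263280 (plus strand) for Dusp6 and chr14:105896770-105897069 (minus strand) for Spry2. The capitals mark CGGAA, the core of the motif of the ETS family to which ETV4 and ETV5 belong, or TTCCG, the same motif on the other strand.
Dusp6 promoter: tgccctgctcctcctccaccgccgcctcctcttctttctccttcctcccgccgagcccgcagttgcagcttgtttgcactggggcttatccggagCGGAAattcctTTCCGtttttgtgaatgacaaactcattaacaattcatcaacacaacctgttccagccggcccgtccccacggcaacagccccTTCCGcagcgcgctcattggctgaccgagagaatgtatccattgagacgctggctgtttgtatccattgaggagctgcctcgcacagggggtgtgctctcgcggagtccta
Spry2 promoter: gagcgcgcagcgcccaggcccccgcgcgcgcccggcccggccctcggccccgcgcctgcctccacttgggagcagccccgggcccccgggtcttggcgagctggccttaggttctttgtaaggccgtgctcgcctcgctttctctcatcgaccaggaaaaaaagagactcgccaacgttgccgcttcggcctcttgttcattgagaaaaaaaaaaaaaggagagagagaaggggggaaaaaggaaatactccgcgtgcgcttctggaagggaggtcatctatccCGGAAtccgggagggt
CGGAA occurred 3 times in the Dusp6 window and 1 time in the Spry2 window, and in 29.9% of all 32851 windows. The longer motif CCGGAAGT, which contains CGGAA, was in 3.9% of all windows and in neither of these. Of the 10 genes, 7 matched the promoter table, with 9 windows. CGGAA was absent from the windows of Pdgfra, Fgfr2, Fgf4, Grb2 and Etv5. Pdgfra also passed the test, and Etv5 is also an output of ERK, so the count of CGGAA did not follow the test result. A match is a description of letters and not a site of binding.

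**Figure D2:**
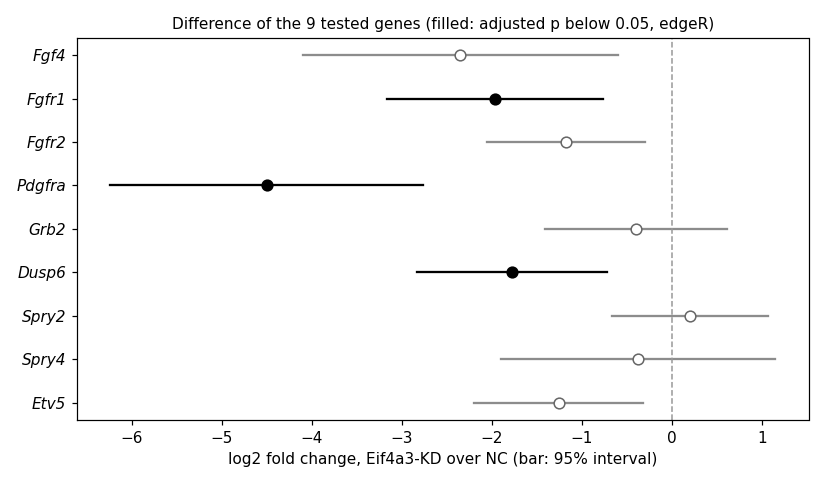
Log2 fold change of Eif4a3-KD over NC (x axis) for the 9 tested genes (y axis) with the 95% interval from edgeR; filled points have an adjusted p under 0.05. Pdgfra, Fgfr1 and Dusp6 are filled, and the intervals of Grb2, Spry2 and Spry4 span 0.

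Levels were compared between genes per kilobase of merged exon length. In Eif4a3-KD the order of mean levels per kilobase was Spry2 (7.59 CPM per kb), Grb2 (6.48), Etv5 (2.33), Fgfr2 (1.07), Fgfr1 (0.675), Dusp6 (0.631), Fgf4 (0.257), Spry4 (0.116), Pdgfra (0.0498) and Etv4 (0.0201). In NC it was Grb2 (8.52 CPM per kb), Spry2 (6.62), Etv5 (5.57), Fgfr1 (2.65), Fgfr2 (2.41), Dusp6 (2.16), Fgf4 (1.31), Pdgfra (1.12), Spry4 (0.151) and Etv4 (0.0532). In Eif4a3-KD, neighbours in this order had ranges over the 3 libraries that did not overlap only between Grb2 and Etv5 and between Etv5 and Fgfr2. In NC this held between Etv5 and Fgfr1, between Pdgfra and Spry4 and between Spry4 and Etv4. The range of Pdgfra in Eif4a3-KD (0.00467 to 0.0907 CPM per kb) overlapped those of Spry4 and Etv4, while in NC (0.630 to 1.40 CPM per kb) it was above both genes in every library. Merged exon length can exceed that of the transcripts present, and a pair over a splice junction counts more than once, so levels per kilobase are approximate.

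Because the table counts exons, the genes could be followed from the 5′ to the 3′ end. The relative use of exon blocks within the 10 genes did not pass, with 0 of 37 tested blocks called by edgeR's exon usage test, where the background was 0.168% of 67890 blocks in either direction, and 0 of the 37 had an unadjusted p under 0.05 (lowest 0.0534, a block of Fgfr2). Fgfr2 had the lowest p of the genes compared along their length. Its blocks 3 to 6 from the 5′ end held 6.56, 5.21 and 5.48 CPM in Eif4a3-KD libraries 1, 2 and 3, against 9.30, 5.84 and 1.12 CPM in NC libraries 1, 2 and 3, and the groups overlapped there. Blocks 8 to 22 held 4.55, 5.94 and 4.03 CPM in Eif4a3-KD, against 24.6, 20.05 and 11.75 CPM in NC, with no overlap. Block 7, left out of both stretches, held 0.281, 0.242 and 0.120 CPM in Eif4a3-KD, against 0.647, 0.0664 and 0 CPM in NC, with overlap. The stretches of Fgfr2, Etv5 and Pdgfra were cut by hand and not by a rule. The contrast between them is therefore a description only. Over the gene cut at its middle block, the 5′ blocks took 66.3, 55.5 and 61.9% of the counts in Eif4a3-KD and 38.6, 28.9 and 15.4% in NC. This 5′ share was compared after the values were seen, over all 4942 genes with at least 10 blocks, and Fgfr2 had an unadjusted p of 0.0621 and an adjusted p of 1, with 0 of 4942 genes called (background 0%). At an unadjusted p under 0.05 there were 87 of the 4942 genes, and in 48 of these 87 the 5′ share was higher in Eif4a3-KD. Over 4246 genes with enough counts, the median 5′ share per library was 37.8, 32.2 and 36.2% in Eif4a3-KD and 33.2, 30.4 and 33.1% in NC, so coverage along transcripts also differed slightly between libraries, and its part in the Fgfr2 values was not tested.

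Etv5 had a profile of the same kind in part. The first 6 blocks held 3.66, 4.48 and 2.95 CPM in Eif4a3-KD libraries 1, 2 and 3, against 2.14, 4.45 and 8.53 CPM in NC libraries 1, 2 and 3, with overlap. Blocks 7 to 14 held 6.045, 1.03 and 1.93 CPM in Eif4a3-KD, against 7.61, 5.18 and 15.2 CPM in NC. The groups overlapped there too, unlike in blocks 8 to 22 of Fgfr2. The last block held 3.19, 2.54 and 2.83 CPM in Eif4a3-KD, against 6.17, 6.84 and 12.5 CPM in NC, with no overlap. Its 5′ share was 28.4, 55.6 and 38.3% in Eif4a3-KD and 13.4, 27.02 and 23.6% in NC (unadjusted p 0.188, adjusted p 1). The few Pdgfra counts of Eif4a3-KD were not spread along the gene as in NC. The 15 counts of Eif4a3-KD library 2 lay in the 3′ blocks and the 9 counts of library 3 in blocks 1 to 9, whereas each NC library had counts in both parts. In Fgfr1 the groups overlapped at some of the 5′ blocks, while the last block held 2.06, 2.30 and 0.722 CPM in Eif4a3-KD libraries 1, 2 and 3, against 9.15, 8.17 and 7.42 CPM in NC libraries 1, 2 and 3, with no overlap. Its 5′ share was 14.3, 11.1 and 16.2% in Eif4a3-KD and 15.5, 7.27 and 7.30% in NC (adjusted p 1).

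**Figure D3:**
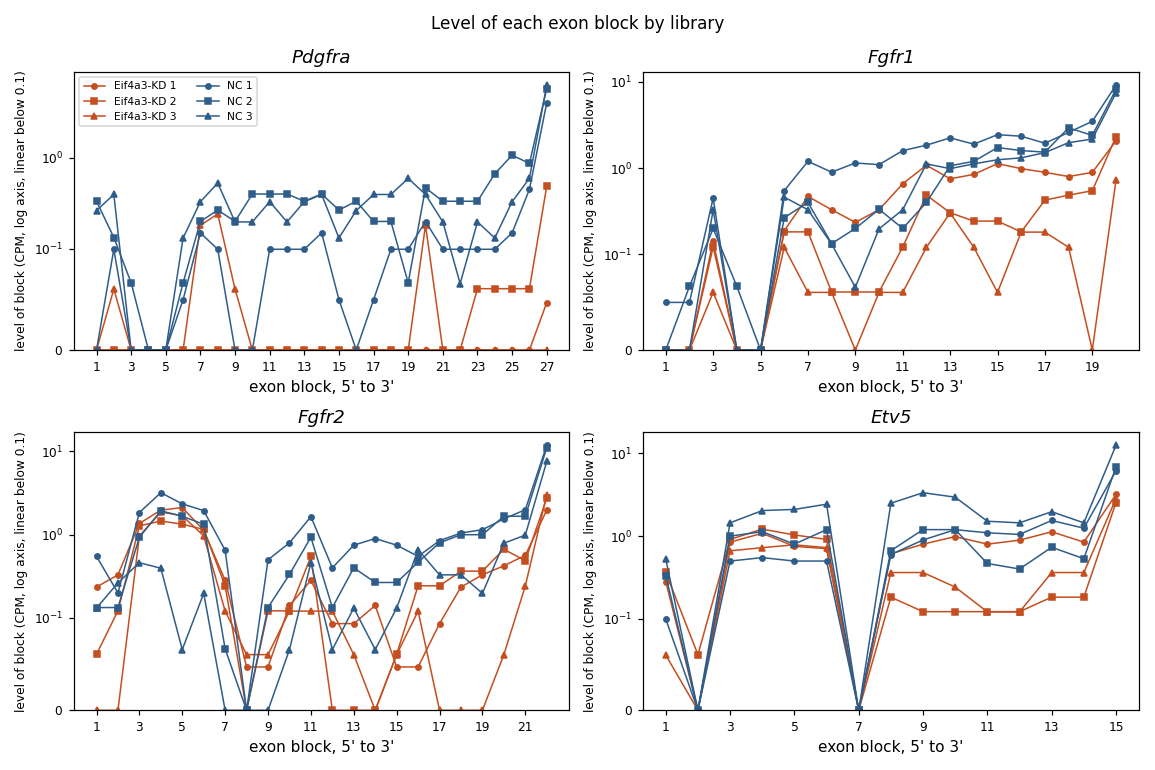
Level of each exon block in CPM (y axis, log scale above 0.1 and linear below) along Pdgfra, Fgfr1, Fgfr2 and Etv5, numbered from the 5′ end (x axis), in the 3 Eif4a3-KD and the 3 NC libraries. In Fgfr2 the libraries of both groups mix at blocks 3 to 6 and the NC libraries lie above the Eif4a3-KD libraries at the last block, 22.

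Among 101 other genes of the pathway, 100 were found in the table, 78 were tested, 3 were higher and 8 lower in Eif4a3-KD at an adjusted p of 0.05 by edgeR (background 7.52% higher and 5.56% lower). Their median log2 fold change was −0.15, beside 0.03 over all genes tested. Of the 8 tested ligand genes 0 were higher and 1 lower (median 0.19), and of the 11 tested receptor genes 0 were higher and 1 lower (median −0.35). Of 26 adaptor, RAS and ERK cascade genes 1 was higher and 3 lower (median −0.26), of 12 feedback inhibitors 1 was higher and 1 lower (median 0.07), and of 21 nuclear outputs 1 was higher and 2 lower (median −0.03). The ligand gene was Fgf10, known for its role in epithelial budding, which had 0 counts in all Eif4a3-KD libraries and 98, 37 and 37 counts in NC libraries 1, 2 and 3. Against a floor of 3 counts over the Eif4a3-KD group it was at least 61.9-fold lower (adjusted p 0.00432), and 26.7% of its counts lay in blocks that overlap another gene.

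Frs2, the docking protein that joins activated FGF receptors to GRB2, fell to 23.05, 34.1 and 26.1 CPM in Eif4a3-KD libraries 1, 2 and 3, against 105, 88.8 and 67.6 CPM in NC libraries 1, 2 and 3 (log2 fold change −1.65, adjusted p 0.00897 by edgeR). It kept its call in all 14 alternatives. The related docking gene Frs3 rose to 7.71 ± 3.58 CPM in Eif4a3-KD, against 1.45 ± 0.772 CPM in NC (2.40, adjusted p 0.0249), a call lost without Eif4a3-KD library 1 (0.0638), NC library 2 (0.0823) and NC library 3 (0.068). Erbb2, an EGF family co-receptor, fell to 1.56 CPM in Eif4a3-KD, against 13.0 CPM in NC (−3.04, adjusted p 0.0148), with 37.7% of counts in blocks shared with another gene and the call lost without Eif4a3-KD library 2 (0.0502) and NC library 1 (0.0528). The RAF kinase gene Araf (−1.15, adjusted p 0.0296), the ERK substrate kinase gene Rps6ka1 (−1.93, 0.0423) and the ubiquitin ligase gene Cbl (−1.29, 0.0267) were lower, and each lost its call without any 1 of Eif4a3-KD libraries 2 and 3 and NC libraries 1, 2 and 3, with adjusted p up to 0.129. The log2 fold change of Rps6ka1 was −2.96 without Eif4a3-KD library 1 and −1.60 without Eif4a3-KD library 3. Mycn (−4.46, adjusted p 0.0156), a MYC family transcription factor, measured 0, 0.606 and 0.120 CPM in Eif4a3-KD and 7.56, 4.65 and 3.61 CPM in NC. Its call was lost without Eif4a3-KD library 3 (0.0516). The log2 fold change of Mycn was −6.43 without Eif4a3-KD library 2 and −3.88 without Eif4a3-KD library 1. Myc itself fell to 5.04 CPM in Eif4a3-KD, against 19.7 CPM in NC (−1.97, adjusted p 0.0309), a call kept when Eif4a3-KD library 3 was left out (0.0297) and lost without each of the other 5 libraries (up to 0.0968).

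The other 2 genes of the lists that rose were almost silent in NC. The ERK phosphatase gene Dusp2 had 56, 17 and 20 counts in Eif4a3-KD libraries 1, 2 and 3, against 2, 1 and 0 counts in NC libraries 1, 2 and 3 (scaled ratio 28.7, counting interval 9.52 to 142, adjusted p 0.0127 by edgeR), and it lost its call without NC library 2 (0.0639). Its fitted log2 fold change was 4.64. It was 5.34 without NC library 1 and 4.06 without Eif4a3-KD library 1. Fosl1, which encodes the AP-1 subunit FRA1, had 89, 36 and 53 counts in Eif4a3-KD against 1, 5 and 0 in NC (ratio 27.5, 12.4 to 75.8, adjusted p 0.0128), with 72.3% of counts in blocks that overlap another gene. Its fitted log2 fold change was 4.62, and 6.49 without NC library 2, which held 5 of its 6 NC counts. Without NC library 3 the fitted value was 4.065. Dusp4 (1.29, adjusted p 0.104) and Spry1 (0.33, adjusted p 0.717), relatives of Dusp6 and Spry2, missed the threshold, and Kit was not tested.

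**Figure D4:**
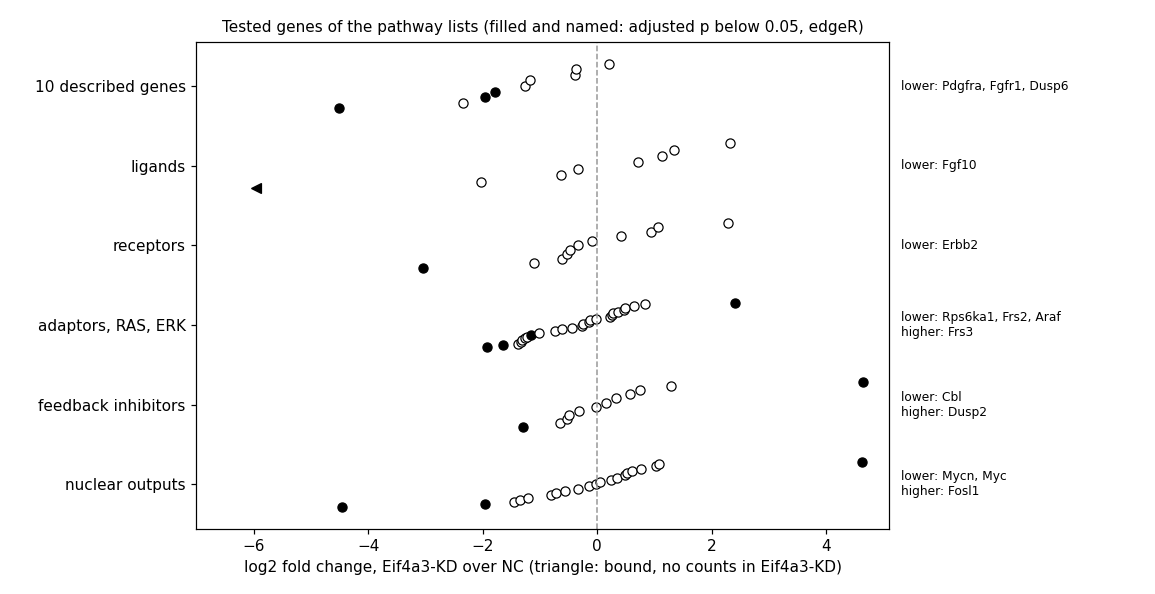
Log2 fold change of Eif4a3-KD over NC (x axis) for the tested genes of each list (rows), with filled points and names for an adjusted p under 0.05 by edgeR and a triangle for a gene with 0 counts in Eif4a3-KD, drawn at its bound. The described genes lie mostly below 0, while the other lists spread on both sides.

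Markers of the blastocyst lineages, in which these genes are known to be expressed, were also lower in part. Over all genes tested, 5.56% were called lower and 7.52% higher, and the median log2 fold change was 0.03. All Eif4a3-KD libraries lay below all NC libraries in 16.3% of them. Of 12 tested primitive endoderm markers 0 were higher and 3 lower (Col4a1, Lamb1 and Sparc), with a median log2 fold change of −0.75, and their summed level was 343 to 375 CPM in Eif4a3-KD libraries and 717 to 874 CPM in NC libraries. The largest part of this sum was Dab2, at 251 CPM on average in Eif4a3-KD and 437 CPM in NC (adjusted p 0.0839 by edgeR). Sparc averaged 11.6 CPM in Eif4a3-KD and 182 CPM in NC. Gata6, which FGF signalling sustains in primitive endoderm, measured 58.3 ± 8.42 CPM in Eif4a3-KD and 63.5 ± 3.97 CPM in NC (adjusted p 0.794 by edgeR). Gata4 averaged 1.43 CPM in Eif4a3-KD and 2.32 CPM in NC (adjusted p 0.639 by edgeR). Sox17 was too low to be tested. It measured 0.281, 0.0606 and 0.0602 CPM in the Eif4a3-KD libraries and 3.93, 1.53 and 0.591 CPM in the NC libraries, with no overlap. Sox7 was not tested either and its groups overlapped, while Foxa2 was at 0 in all 6 libraries. Of 12 tested epiblast markers other than Fgf4, 0 were higher and 5 lower (median −0.77), with a summed level of 667 to 879 CPM in Eif4a3-KD and 1061 to 1321 CPM in NC. The largest parts of this sum were Dppa4 (305 CPM on average in Eif4a3-KD, 297 CPM in NC) and Tfcp2l1 (202.5 and 239.5 CPM). Tdgf1 averaged 5.03 CPM in Eif4a3-KD and 182 CPM in NC. Nanog measured 74.5 ± 12.9 CPM in Eif4a3-KD and 140 ± 71.1 CPM in NC (adjusted p 0.155). Of 13 tested trophectoderm markers other than Fgfr2, 0 were higher and 7 lower (median −1.82), with a summed level of 713 to 2378 CPM in Eif4a3-KD and 2766 to 6716 CPM in NC. Most of this sum was 2 keratin genes. Krt8 averaged 641 CPM in Eif4a3-KD and 1714 CPM in NC (adjusted p 0.134 by edgeR). Krt18 averaged 445 CPM in Eif4a3-KD and 1741 CPM in NC (adjusted p 0.0332). The part of these lineages in the differences of Pdgfra, Fgfr1, Fgfr2, Fgf4 and Dusp6 was not tested.

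Markers of other cells that an embryo pool could hold were also measured. Of 3 tested fibroblast markers 0 passed in either direction, and their sum was 1.02 to 10.7 CPM in Eif4a3-KD and 1.99 to 12.7 CPM in NC. Cumulus markers summed to 16.4 to 28.8 CPM in Eif4a3-KD and 3.58 to 15.5 CPM in NC, with no overlap between the groups, and 5 of 8, Has2, Ptx3 and Fshr among them, were at 0 in every library. Amhr2, the only one of them tested, measured 28.8, 16.1 and 22.9 CPM in the Eif4a3-KD libraries and 3.58, 15.4 and 11.55 CPM in the NC libraries (log2 fold change 1.15, adjusted p 0.152 by edgeR). Blood markers summed to 60.4 to 112 CPM in Eif4a3-KD and 36.95 to 106 CPM in NC, with 1 of 5 tested lower. Most of this sum was Cd68, a gene of macrophage lysosomes, at 57.7, 94.5 and 103 CPM in the Eif4a3-KD libraries and 23.2, 64.1 and 70.9 CPM in the NC libraries (adjusted p 0.3 by edgeR), while the leukocyte gene Ptprc reached at most 0.497 CPM. Sperm markers, of which 0 of 6 could be tested, summed to 0.969 to 3.31 CPM in Eif4a3-KD and 1.04 to 2.43 CPM in NC. The part of these cells in the differences of the 10 genes was not tested.

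The genes with the pattern most like that of Fgf4 over the 6 libraries, by the mean absolute difference of centred log2(CPM + 1) values among 6763 genes with at least 10 CPM on average, were Smim22 (0.127), Grcc10 (0.133) and Ndufb2 (0.134). Adding 1 shrinks the changes of genes at low levels, such as Fgf4. The fitted log2 fold changes of these matches were −1.45, −1.76 and −1.40, against −2.35 for Fgf4. Those most like Pdgfra, among 8377 genes with at least 5 CPM, were Zfp57 (0.189), which measured 1.48 CPM in Eif4a3-KD and 17.7 CPM in NC, Timp1 (0.248), with 1.44 CPM in Eif4a3-KD and 18.3 CPM in NC, and Upp1 (0.307), with 37.3 CPM in Eif4a3-KD and 252 CPM in NC. Their fitted log2 fold changes were −3.585, −3.669 and −2.755, against −4.50 for Pdgfra.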

How the data were processed

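RNA of 6 pools of 5 mouse blastocysts was measured by Smart-seq2 (3 Eif4a3-KD, 3 NC). Per the submitters' processing notes, FastQC 0.11.9, fastp 0.20.1, STAR 2.7.6a, featureCounts 2.0.1, R 4.1.1 and DESeq2 1.34.0 were used with GRCm38. Per the file headers, the deposited values are raw counts of read pairs per exon line, counted by the authors against GENCODE vM29 moved to GRCm38, in every line that a pair overlaps, with strand setting 2. Smart-seq2 does not mark the strand, so pairs of the other orientation are missing and overlapping genes cannot be separated.

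The 842173 lines hold 449500 distinct exons. Exons that overlapped within a gene were joined (291424 blocks), each block took the value of its most counted line, and blocks were summed for 55378 genes, 55102 of them matched to a symbol. A pair that spans a junction counts in more than 1 block. The planned test assumed counts per gene. Genes were tested with edgeR 4.0.16 under R 4.3.3 (filterByExpr, TMM, glmQLFit and glmQLFTest, unpaired, two-sided) and Benjamini-Hochberg adjustment over 15619 genes at 0.05. Block usage was tested with diffSpliceDGE. Alternatives were DESeq2 1.42.0, its size factors, other filters and gene sums, a replicate block and leaving out each library, 14 in all. Intervals are at a level of 95% and, for pooled counts, cover counting error only. Scripts were tested on simulated data.

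The 10 genes, the lists and the rules were chosen with earlier results of these data known. Genes were named by rule: the 10, up to 4 called genes with the smallest p per pathway list, preset relatives of the 10 (Mapk3, Spry1, Dusp4, Kit, Fgfr3, Fgfr4, Pdgfa and Pdgfrb) and 3 genes of like pattern each for Fgf4 and Pdgfra. Markers of lineages and other cells were named after their values were seen. Some items that these rules cover are not reported here.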

Additional observations from a re-analysis of the deposited data

How the results depend on the processing

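Direction and call were recomputed under 14 alternatives. Of the log2 fold changes of the 9 tested genes, 101 kept their side of the threshold, 13 newly passed and 10 no longer passed. The count of the 10 genes called lower was 3, and it was 6 by DESeq2, 6 with no filter on low counts and 6 with the most counted block alone. The count called higher was 0 throughout, with 0 also by DESeq2. Over all genes, DESeq2 called 1893 higher and 1407 lower of 31769 genes fitted. The fit with no filter called 2089 and 1518 of 31769, and the most counted block alone 1351 and 1014 of 13798. The main fit called 1174 and 869 of 15619. All 10 genes entered the DESeq2 fit and the fit with no filter, and 9 entered the main fit. The gene totals differ, so these counts cannot be compared directly. Of the other pathway genes, 14 were lower by DESeq2 and 13 with no filter, against 8, and 1 was higher with a filter of at least 5 CPM in 3 libraries, against 3. The cause of these shifts was not tested.

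Without each library in turn, genes called higher ranged from 550 to 1223 and genes called lower from 336 to 1131. Of the 10 genes, 1 to 3 were called lower, and of the other pathway genes 3 to 11 were lower and 1 to 3 higher. The lowest counts of all genes came without an NC library.

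The replicate numbers were not treated as pairs, and 3 libraries per group cannot settle whether they pair the samples. Deviations of same-numbered libraries from their group means correlated at 0.367, 0.001 and 0.128. The value of 0.367, for library 1 of each group, was the highest of all combinations. Eif4a3-KD library 3 correlated best with NC library 2 (0.271). With the replicate block, 1332 genes were higher and 1198 lower, 4 of the 10 genes were lower (Fgf4 with adjusted p 0.0373), 4 pathway genes were higher and 12 lower, and 0 blocks of the 10 genes were called.

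Depth limits Etv4, Spry4, Fgf4 and the Eif4a3-KD values of Pdgfra, which rest on few counts.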
